A study of Homo sapiens with 12 samples.

Results

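The genes described here encode the proteins of the cytosolic ribosome. They were taken by symbol from the gene count matrix of the sgControl and sgEGR1 libraries, as every RPL or RPS gene with a number (and the suffix A or X where the gene has one), together with RPLP0, RPLP1, RPLP2, RPSA and the paralogs RPS27L and RPL22L1. Pseudogenes were left out. The rule found 79 genes of 54628 in the matrix, of which 31 belong to the small subunit, 46 to the large subunit and 2 are the paralogs. All 79 passed the filter on low counts, which left 15492 genes to be tested. The cells were HUDEP-2, an immortalised human erythroid precursor line derived from umbilical cord blood. The line is grown with stem cell factor (SCF, the ligand of the Kit receptor tyrosine kinase), erythropoietin, dexamethasone and doxycycline. All cells carried a lentivirus for dCas9-KRAB, a catalytically dead Cas9 fused to a repressor domain (CRISPRi), and were sorted on its GFP. The guide was sgControl, or sgEGR1, directed at an element upstream of EGR1, a transcription factor gene that Kit signalling induces. Cells of both guides were starved for 5 h and then given PBS, or SCF at 50 ng/mL for 1 h. The 4 groups (sgControl PBS, sgControl SCF, sgEGR1 PBS and sgEGR1 SCF) held 3 libraries each. The comparisons ask what SCF does to ribosomal protein mRNAs within 1 h and whether the EGR1 element matters for it.

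A ribosome holds a single copy of most of these proteins, so cells balance their supply and degrade what is not assembled. The small subunit reads the mRNA, and the large subunit joins the amino acids and recruits elongation factors with its flexible stalk. Ribosomal protein mRNAs are long-lived, and most of them start with a C and a run of pyrimidines (a 5' terminal oligopyrimidine, or TOP, tract) through which mTORC1 and LARP1 control their translation, a step that mRNA levels do not show. Red cell precursors depend on a high output of ribosomes, and loss of a single allele of RPS19, RPL5, RPL11 or several other members causes Diamond-Blackfan anaemia, in which erythroid precursors fail.

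The start of 9 members is printed to show this tract in the genes the results turn on (RPS15, RPL28, RPL13 and RPL41), in RPS19, and in both paralogs beside their partners RPS27 and RPL22. Each line gives 10 bases before and 20 bases from the annotated start (RefSeq, GRCh38.p14), written 5' to 3' on the strand of the gene, with the unbroken run of C and T from the start in capitals where the start is a C or T.
RPS15 (chr19:1438386-1438415, plus strand): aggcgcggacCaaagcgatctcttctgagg
RPL28 (chr19:55385922-55385951, plus strand): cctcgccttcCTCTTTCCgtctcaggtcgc
RPL13 (chr16:89560672-89560701, plus strand): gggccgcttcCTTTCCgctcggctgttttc
RPL41 (chr12:56116623-56116652, plus strand): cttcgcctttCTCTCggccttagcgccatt
RPS19 (chr19:41860245-41860274, plus strand): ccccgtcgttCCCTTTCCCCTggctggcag
RPS27 (chr1:153990752-153990781, plus strand): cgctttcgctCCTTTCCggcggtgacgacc
RPS27L (chr15:63157458-63157487, minus strand): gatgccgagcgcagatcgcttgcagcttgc
RPL22 (chr1:6199576-6199605, minus strand): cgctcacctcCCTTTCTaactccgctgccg
RPL22L1 (chr3:170870176-170870205, minus strand): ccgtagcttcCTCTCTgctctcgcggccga
An entry was found for 64 members. Of these, 47 (73.4%) had a C at the start and at least 5 pyrimidines in a row from it, compared with 941 (5.96%) of 15778 other genes. The median tract of the 47 was 8 bases and the longest 19. RPS15 has a lone C at its annotated start and RPS27L none, whereas RPL22L1 carries a tract as RPL22 does. In the 250 bases before and 50 bases after the start, the EGR motif GCGTGGG (or CCCACGC, its other strand) stood in 2 members, RPLP2 and RPS24 (3.13%), and in 10.8% of other genes. The ETS motif CCGGAAGT (or ACTTCCGG) was found in 10 members (15.6%) and 6.93% of other genes, and the E-box CACGTG in 4 members (6.25%) and 10.9% of other genes. Motifs were searched on both strands, and a match is a run of letters and not a bound site.

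The libraries held 23498065 to 32039680 counts, 8.23% to 10.7% of them from the mitochondrial genome. Of 16 erythroid markers, 15 had more than 3 counts in every library, and their sum was 27552 to 32875 CPM (counts scaled to an equal library total with TMM factors). Of 16 markers of other lineages, 9 never exceeded 3 counts, and the sum of all 16 was 162 to 216 CPM, most of it EPCAM (138 to 171 CPM). EGR1, whose element the guide targets, stood at 10.9, 5.99 and 7.45 CPM in sgControl PBS, 208, 239 and 171 CPM in sgControl SCF, 2.04, 1.12 and 0.977 CPM in sgEGR1 PBS and 40.4, 57.4 and 203.6 CPM in sgEGR1 SCF. The library labelled sgEGR1 SCF replicate 3 thus had EGR1 in the range of sgControl SCF, and the main results on sgEGR1 SCF are also given without it.

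Not every member could be measured equally well. RPS9 had 0 to 14 counts per library and RPS18 had 5 to 86, although each protein is part of every ribosome. The pseudogenes RPS9P2 and RPS18P2 had 305 to 444 and 1773 to 2630 counts. Reads of such near-identical copies can be split between genes, and no fold change is given for the 3 members of very low counts. RPL36A, RPL17 and RPS10 are also uncertain, because the readthrough genes RPL36A-HNRNPH2, RPL17-C18orf32 and RPS10-NUDT3 had 106 to 4420, 359 to 1043 and 0 to 418 counts. In all, 46 members share exon bases with another annotated gene, 34 of them on the same and 26 on the opposite strand. RPL28 (chr19:55385932-55403250, plus strand, GRCh38) holds MIR6805 and RPL13 (chr16:89560677-89564542, plus strand) holds SNORD68. RPS15 (chr19:1438358-1440495, plus strand) and RPL41 (chr12:56116590-56117967, plus strand) share no exon.

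Together the 79 genes took 7.22% to 8.35% of all counts. Their share was 7.33%, 8.35% and 8.29% in sgControl PBS (7.99% ± 0.575, SD, n = 3) and 7.22%, 7.60% and 8.25% in sgControl SCF (7.69% ± 0.521). In sgEGR1 it was 7.57%, 7.58% and 7.56% after PBS (7.57% ± 0.00814) and 7.45%, 7.71% and 7.92% after SCF (7.69% ± 0.232). The ranges of all 4 groups overlapped, and the sgEGR1 PBS libraries lay close together inside the range of each other group. In percentage points, the mean after SCF minus the mean after PBS was -0.304 in sgControl and 0.127 in sgEGR1. The mean of sgEGR1 minus that of sgControl was -0.424 after PBS and 0.00606 after SCF. The SD between libraries of a group, pooled over the 4 groups, was 0.405 points. It describes single libraries, is not the error of a difference of means, and the groups' own SDs ran from 0.00814 to 0.575. The 95% Wilson intervals of the shares had half-widths of 0.00907 to 0.0107 points, which cover counting error only. With all libraries, the guide difference after PBS exceeded the pooled SD, and 1 of its 3 same-numbered differences had the other sign (0.239, -0.778 and -0.734). It was -0.756 without sgControl PBS replicate 1 and smaller than the SD without sgControl PBS replicate 2 (-0.243) or 3 (-0.274). The SCF difference in sgControl exceeded the SD without sgControl PBS replicate 1 (-0.635) or sgControl SCF replicate 3 (-0.584), and was -0.0685 without sgControl SCF replicate 1, -0.123 without sgControl PBS replicate 2 and -0.153 without sgControl PBS replicate 3. Without sgEGR1 SCF replicate 3, the SCF difference in sgEGR1 was 0.0146 and the guide difference after SCF -0.106. No test was run on the summed share. In bulk libraries, fewer cells of a type and less RNA per cell cannot be told apart.

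**Figure D1:**
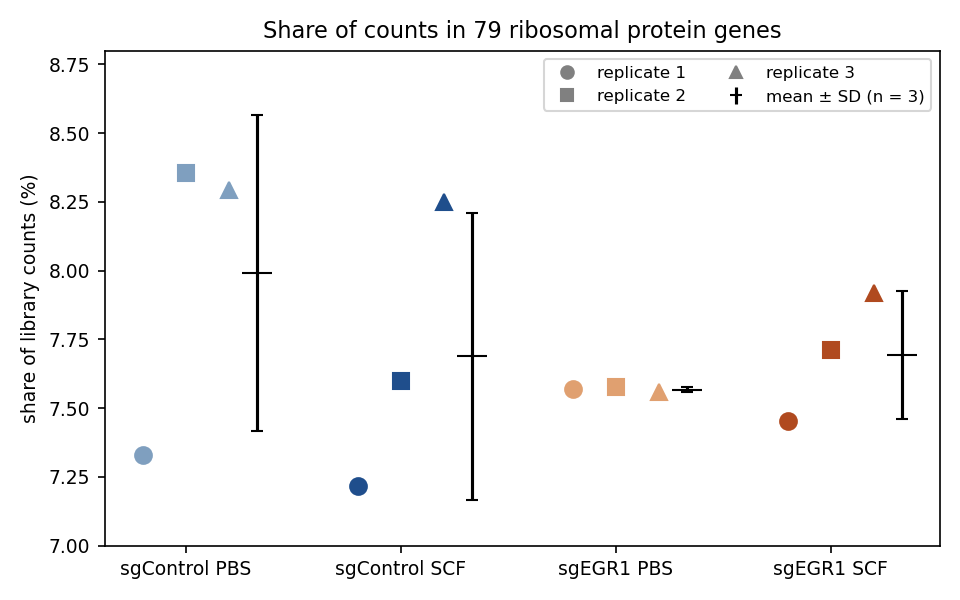
Share of library counts (%) taken by the 79 ribosomal protein genes (y axis, which starts at 7%) in each library of the 4 groups (x axis), with the mean ± SD of 3 libraries beside each group. The sgControl groups spread from 7.22% to 8.35%, and the sgEGR1 PBS libraries lie between 7.56% and 7.58%.

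The members moved together from library to library. Over the 76 members without very low counts, the median Pearson correlation of log2 CPM between pairs of members was 0.819 over the 12 libraries. After the group means were taken off it was 0.874, with 2827 of 2850 pairs above 0. All of these values share the libraries and their scaling. The median member stood 0.13 and 0.15 (log2) above its own mean over all libraries in sgControl PBS replicates 2 and 3, and 0.13 above it in sgControl SCF replicate 3. In replicate 1 of sgControl PBS and SCF it stood at -0.11 and -0.14. In sgControl PBS replicate 2, 77 of 79 members were above their mean, compared with 1 of 79 in sgControl SCF replicate 1. The sgEGR1 PBS libraries differed least, between -0.043 and -0.0090. Within groups the SD of this library median was 0.105 on the log2 scale. The median log2 SD of a single member within groups was 0.110, compared with 0.145 for all genes tested.

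**Figure D2:**
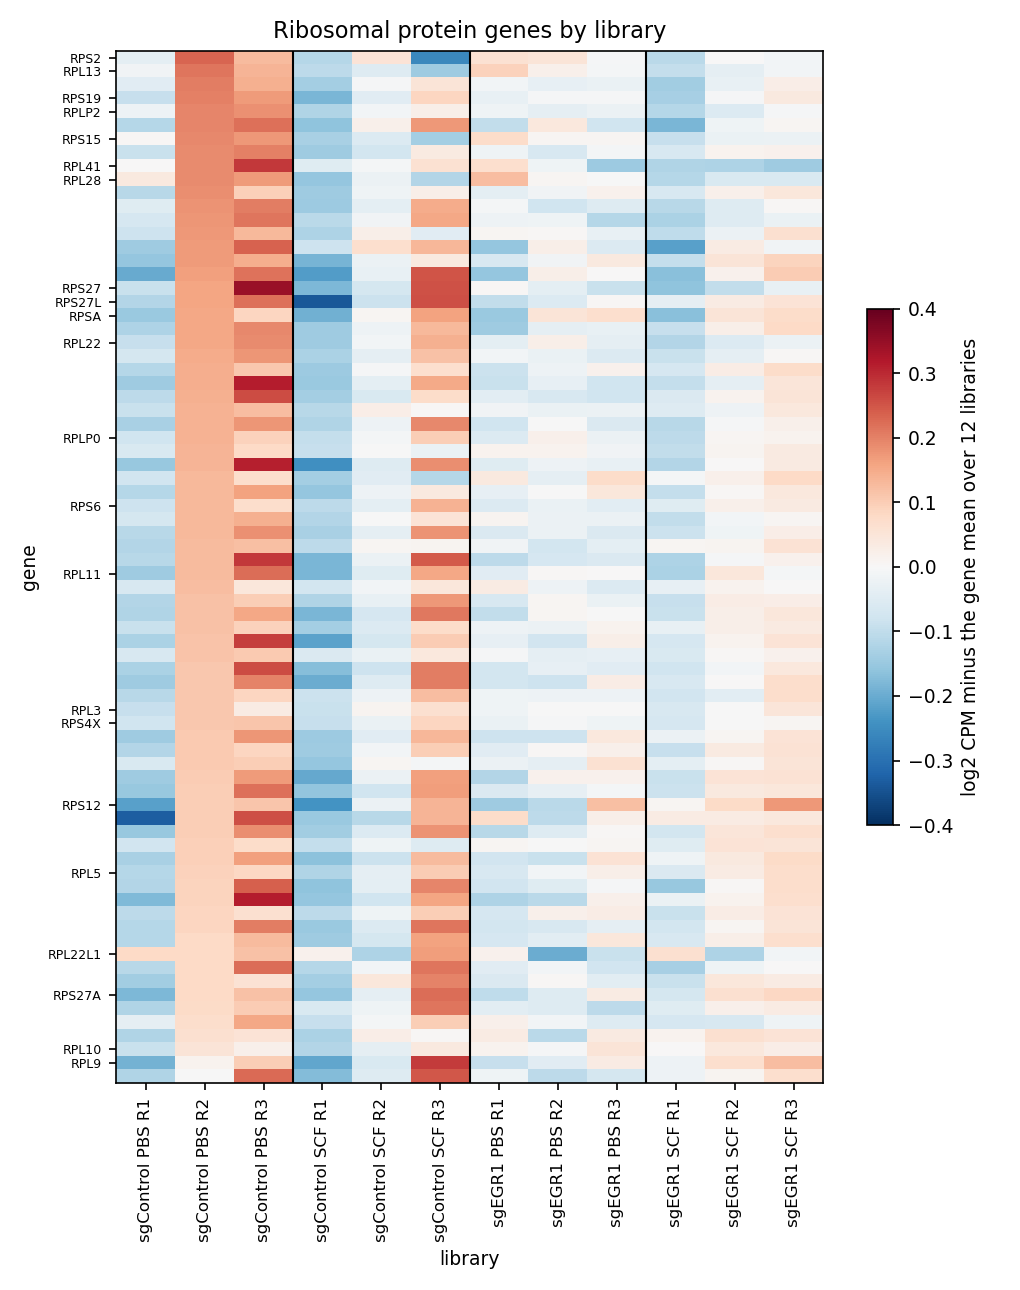
Map of the 76 members without very low counts (1 line each) over the 12 libraries (columns, R1 to R3 being the replicates), in which the colour gives log2 CPM minus the mean of the gene over all libraries and some genes named in the text are labelled. Most genes of a column share a colour. R2 and R3 of sgControl PBS and most of R3 of sgControl SCF are above the mean, R1 of both sgControl groups is below it, and RPS2, RPL13, RPS15 and RPL28 depart from the other genes in R3 of sgControl SCF.

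In sgControl cells, the mRNAs of RPS15 and RPL28 fell after SCF. RPS15 is a small subunit protein whose tail reaches the decoding centre. It had 657.3, 748.4 and 739.2 CPM after PBS and 599.0, 630.4 and 596.4 CPM after SCF. The groups did not overlap, and RPS15 fell by 14.9% (log2 fold change -0.23, SE 0.052, edgeR quasi-likelihood test with Benjamini-Hochberg adjustment over all genes, adjusted p = 0.0362). RPL28 is a large subunit protein that bacteria lack. Its libraries had 1466, 1624 and 1604 CPM after PBS and 1281, 1403 and 1316 CPM after SCF, again without overlap, and it fell by 14.8% (log2 fold change -0.23, SE 0.054, edgeR, adjusted p = 0.0431). RPL13, a large subunit protein mutated in a skeletal dysplasia, had the next largest difference. It had 1538, 1800 and 1704 CPM after PBS and 1444, 1498 and 1408 CPM after SCF. These groups did not overlap either, but the log2 fold change of -0.21 (SE 0.057) missed the threshold (edgeR, adjusted p = 0.0724).

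RPS15 and RPL28 were the called members, 2 of 79 (2.53%), both lower. Of all genes tested, 2.89% were called and 0.775% were called lower. An unadjusted p under 0.05 was reached by 9 members (11.4%) and by 14.3% of all genes. RPS15, RPL28 and RPL13 were the 3 members whose SCF libraries all lay below the PBS libraries, which was so for 9.24% of all genes. DESeq2 called these 3, where it called 1.90% of 12181 genes lower. A fit with a term for replicate 1 called RPLP2 as well (4 members, beside 3.04% of all genes called lower), with adjusted p of 0.00525 for RPS15, 0.00878 for RPL28 and 0.0181 for RPL13. Replicates 2 and 3 alone gave 5 called members, with RPLP2 and RPL35 added, beside 1.12% of all genes called lower.

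These calls depend on single libraries. No member was called when any 1 of 9 libraries was left out, namely sgControl PBS replicate 2 or 3, sgControl SCF replicate 1, 2 or 3, sgEGR1 PBS replicate 2 or 3, or sgEGR1 SCF replicate 2 or 3. Without sgEGR1 SCF replicate 1 the count was 1 (RPS15), and without sgControl PBS replicate 1 it was 4, with RPL13 and RPL35 added. The share of all genes called in each of these fits is not reported here. The counts therefore do not show whether members lost calls more than other genes did. The fold changes themselves moved little. Over 23 alternatives RPS15 stayed between -0.29 and -0.20 and RPL28 between -0.27 and -0.20, each called in 12, with adjusted p of 0.000489 to 0.141 and of 0.000873 to 0.152. RPL13 stayed between -0.27 and -0.16 and was called in 8, with adjusted p of 0.00567 to 0.246.

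**Figure D3:**
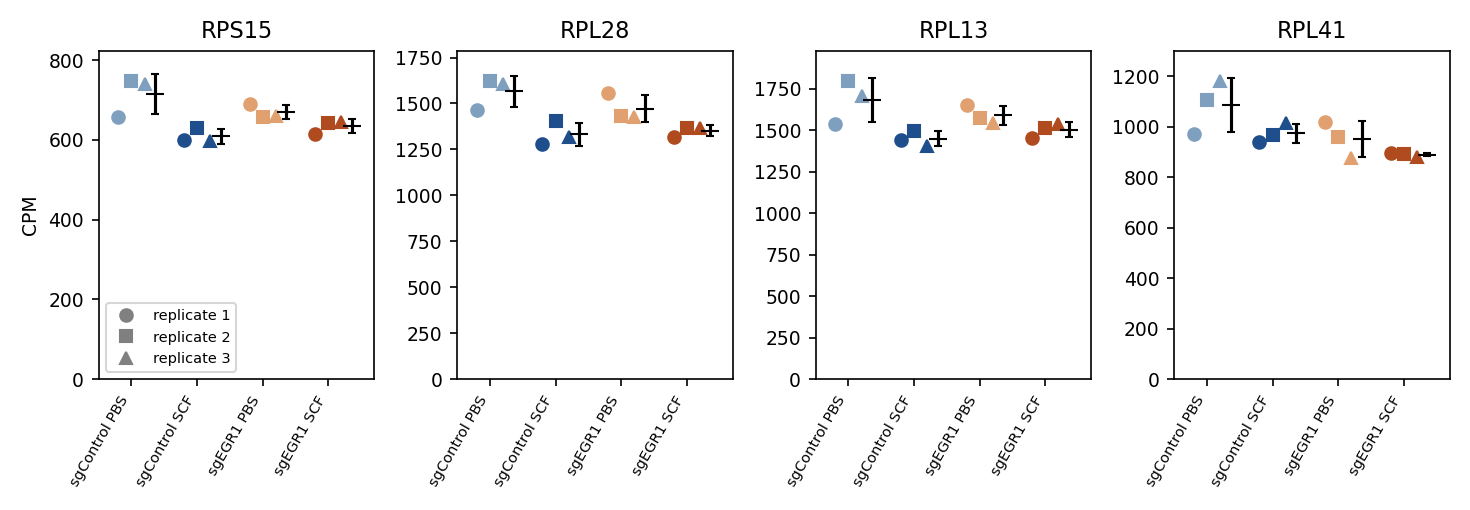
CPM (y axes from 0) of RPS15, RPL28, RPL13 and RPL41 in each library of the 4 groups (x axis), with the mean ± SD of 3 libraries in black. In the first 3 genes every SCF library lies below the PBS libraries of the same guide, and RPL41 is lowest in sgEGR1 PBS replicate 3 and sgEGR1 SCF, at 877.2 to 893.9 CPM.

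The other members differed by less, and none of them passed the test. Of 79 fold changes, 75 were below 0 (51.8% of all genes were), and the median was -0.081 (-0.079 without the 3 members of very low counts) beside -0.0060 for all genes. Since the members move together, these are not 75 separate results. The median was -0.017 without sgControl SCF replicate 1 and -0.025 without sgControl PBS replicate 3, and -0.15 without either sgControl PBS replicate 1 or sgControl SCF replicate 3. After RPL13 the lowest log2 fold changes, leaving out the members of very low counts, were those of RPS2, at the mRNA entry (-0.21, SE 0.080), RPL35 (-0.16, SE 0.072), both named after their values were seen, RPL41, the shortest protein of the ribosome (-0.16, SE 0.070), and the stalk protein RPLP2 (-0.16, SE 0.060). The highest were RPS10 at 0.040, RPL9 at 0.039 and RPS7 at 0.027, with SE of 0.074 to 0.11.

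Members with well-known roles were not called. RPS19, the gene most often mutated in Diamond-Blackfan anaemia, had 875.6, 1071 and 1049 CPM after PBS and 820.7, 904.4 and 990.0 CPM after SCF. Its groups overlapped, and its log2 fold change was -0.14 (SE 0.082). RPL5 and RPL11, which bind MDM2 together with 5S rRNA when assembly fails, stood at -0.039 (SE 0.068) and -0.095 (SE 0.095). RPLP0, the base of the stalk, was at -0.052 (SE 0.065). RPS6, which the S6 kinases phosphorylate downstream of mTORC1, was at -0.039 (SE 0.067). RPS27A, made as a fusion with ubiquitin, was at 0.0080 (SE 0.097). RPL3, which reaches towards the peptidyl transferase centre, was at -0.023 (SE 0.057), and turned to 0.0059 when libraries were scaled by their totals. RPS4X, whose gene is X-linked, was at -0.057 (SE 0.059). For each of these genes the interval of 2 SE on either side of the value included 0.

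In sgEGR1 cells no member was called after SCF, while 2.59% of all genes were. RPL28 had 1555, 1434 and 1424 CPM after PBS and 1319, 1369 and 1369 CPM after SCF, a difference of -0.12 on the log2 scale (SE 0.054, edgeR, adjusted p = 0.311), and it was the 1 member with an unadjusted p under 0.05. RPS15 had 688.7, 658.0 and 658.9 CPM after PBS and 614.4, 643.3 and 644.7 CPM after SCF (-0.076, SE 0.052). RPL13 had 1655, 1576 and 1543 CPM after PBS and 1452, 1514 and 1540 CPM after SCF (-0.083, SE 0.057). In these 3 genes all SCF libraries again lay below all PBS libraries, as was so for 10.0% of all genes. When the library labelled sgEGR1 SCF replicate 3 was left out, the values were -0.13 for RPL28, -0.086 for RPS15 and -0.099 for RPL13. The stalk protein RPLP1, picked out after its values were seen, had 1220, 1172 and 1199 CPM after PBS and 1239, 1242 and 1283 CPM after SCF. It was the 1 member whose SCF libraries all lay above PBS (11.2% of all genes did), and its log2 fold change of 0.068 (SE 0.062, or 0.054 with sgEGR1 SCF replicate 3 left out) was not called.

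Of the 79 fold changes in sgEGR1 cells, 51 were above 0, and the median was 0.013 (-0.0049 without sgEGR1 SCF replicate 3). The highest were RPS12, which sits in the beak of the small subunit, at 0.13 (SE 0.11), RPL9 at 0.091 and RPS29 at 0.088 (0.084, 0.060 and 0.066 without that library). RPL28, RPL41 (-0.098, SE 0.070) and RPL13 were lowest. RPS19, RPL5, RPL11, RPLP0, RPS6, RPS27A, RPL3 and RPS4X lay between -0.017 and 0.065. Of these, RPS19, RPL11, RPLP0 and RPS4X changed sign when libraries were scaled by their totals, and RPL3 did so under DESeq2's size factors.

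The SCF response was not shown to differ between the guides. The interaction called 0% of all genes in edgeR (0 of 15492, of which 306 had an unadjusted p under 0.05) and 0 members, none of which reached an unadjusted p under 0.05. That p was reached by 24 members (30.4%, beside 6.03% of all genes) in replicates 2 and 3 alone, 17 (21.5%, beside 3.43%) without sgControl PBS replicate 1 and 11 (13.9%, beside 3.86%) with a term for each replicate number, and no member was called in these fits. The log2 fold change in sgEGR1 minus that in sgControl was above 0 in 78 of 79 members, with a median of 0.10. It was 0.16 for RPS15 (SE 0.074), 0.11 for RPL28 (SE 0.076) and 0.13 for RPL13 (SE 0.080). RPS21 (0.21, SE 0.11), RPS29 (0.20, SE 0.15) and RPS27L (0.19, SE 0.18) had the highest values. The lowest were RPS10 (-0.0093), RPL3 (0.026) and RPL7A (0.026), all of which changed sign under some alternatives. Leaving out 1 library moved the median between 0.038 and 0.17. It was 0.17 without sgControl PBS replicate 1 and 0.16 without sgControl SCF replicate 3, and it was 0.063 and 0.040 without sgControl PBS replicate 2 or 3 and 0.038 without sgControl SCF replicate 1. RPS29 then ran from 0.068 to 0.31, RPS27L from 0.062 to 0.37 and RPS21 from 0.13 to 0.30. When sgEGR1 SCF replicate 3 was left out the median was 0.074, with 74 of 79 above 0, and RPS15, RPL28 and RPL13 stood at 0.15, 0.10 and 0.11. All 12 libraries enter each value, so the joint movement of the members enters all of them.

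Averaged over both guides, RPL28, RPS15 and RPL13 fell after SCF. The average log2 fold change was -0.18 for RPL28 (SE 0.038, edgeR, adjusted p = 0.0124), -0.15 for RPS15 (SE 0.037, edgeR, adjusted p = 0.0211) and -0.15 for RPL13 (SE 0.040, edgeR, adjusted p = 0.0385). These 3 of 79 members (3.80%) stand beside 9.03% of all genes called and 3.45% called lower. RPL28 was called under all 23 alternatives, with adjusted p of at most 0.0356, RPS15 under 18 and RPL13 under 11. Without sgEGR1 SCF replicate 3, RPL28 and RPS15 were called and RPL13 was not (edgeR, adjusted p = 0.0633). RPL28 alone was called without sgControl PBS replicate 2 or 3, sgControl SCF replicate 1 or 3, or sgEGR1 SCF replicate 1, and 5 members were called without sgControl PBS replicate 1. For these fits the share of all genes called is not reported here. RPL9 (0.065), RPS7 (0.048) and RPS12 (0.044) had the highest averages, and none was called. A test of any difference among the 4 groups called 3.90% of all genes and 0 members in edgeR, where 5 members had an unadjusted p under 0.05. DESeq2 called 4 members in it (5.06%), RPL13, RPL28, RPL41 and RPS15, beside 9.25% of 12777 genes.

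**Figure D4:**
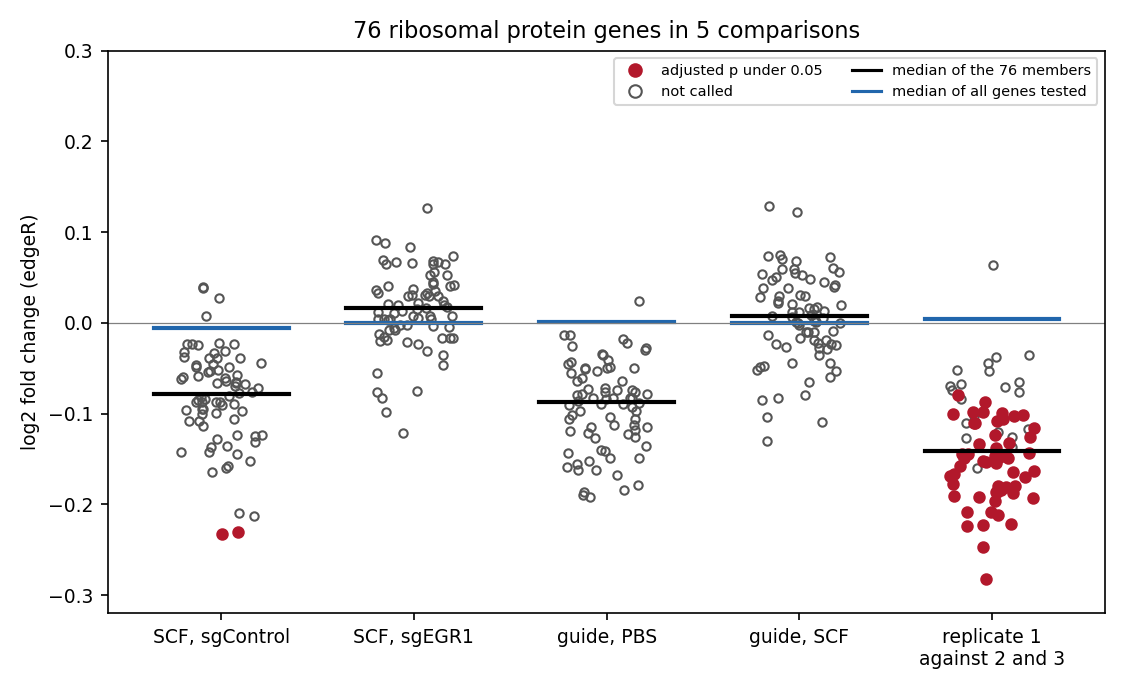
edgeR log2 fold changes (y axis) of the 76 members without very low counts in 5 comparisons (x axis), with filled points for adjusted p under 0.05 and lines for the medians of the members and of all genes tested. Members lie mostly below 0 in SCF against PBS in sgControl and in sgEGR1 against sgControl after PBS, which share the sgControl PBS libraries. They lie around 0 in the other comparisons of groups, and 55 points are filled for replicate 1 against replicates 2 and 3.

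Between guides after PBS, no gene was called in edgeR (0%, 0 of 15492, of which 715 had an unadjusted p under 0.05) and hence no member, and 4 members (5.06%) had an unadjusted p under 0.05. That number was 55 (69.6%, beside 12.1% of all genes) in replicates 2 and 3 alone, 41 (51.9%, beside 7.76%) without sgControl PBS replicate 1, 16 (20.3%, beside 10.2%) with a term for each replicate number and 0 without sgEGR1 PBS replicate 3, and no member was called in any of these. This comparison uses the same sgControl PBS libraries as the SCF comparison in sgControl. RPL41 had 972.0, 1106 and 1182 CPM in sgControl and 1018, 958.6 and 877.2 CPM in sgEGR1, the lowest log2 fold change of the members (-0.19, SE 0.070, edgeR, adjusted p = 0.999). The groups overlapped. RPS27 stood at -0.19 (SE 0.11) and RPL34 at -0.19 (SE 0.11), and RPL10, near the site where the growing chain is held, was highest at 0.024 (SE 0.049) and at -0.018 under 1 alternative. RPL9 and RPS28 followed at -0.013 each. RPS19, RPL5, RPL11, RPLP0, RPS6, RPS27A, RPL3, RPS4X, RPL22 and RPS27L lay between -0.14 and -0.026. Of 79 fold changes, 76 were below 0, with a median of -0.086 beside 0.00063 for all genes. Since the members move together, these are not 76 separate results. Other groups of genes lay on the same side. The medians were -0.12 for 260 ribosomal protein pseudogenes and -0.062 for 648 other genes with an annotated mRNA under 1000 bases. They were -0.059 for 75 mitochondrial ribosomal proteins and -0.017 for 20 other TOP mRNAs. The median of the members was -0.17 in replicates 2 and 3 alone and -0.038 without sgControl PBS replicate 3. RPL22L1 and RPS18 were the 2 members with all sgEGR1 libraries below all sgControl libraries (4.66% of all genes). RPS18 had 86, 12 and 13 counts in sgControl PBS and 5, 12 and 10 counts in sgEGR1 PBS.

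Between guides after SCF, no gene was called in edgeR with all libraries (0%, 0 of 15492, of which 361 had an unadjusted p under 0.05), and the median of the members was 0.0073. Without the library labelled sgEGR1 SCF replicate 3, 2 genes (0.0126%) were called, EGR1 among them (log2 fold change -2.08, SE 0.233, edgeR, adjusted p = 0.0189), and 0 members, whose median was -0.023. RPL41 had 939.0, 965.8 and 1013 CPM in sgControl and 893.9, 891.4 and 880.6 CPM in sgEGR1. It was the 1 member whose sgEGR1 libraries all lay below sgControl (3.53% of all genes), at -0.13 on the log2 scale (SE 0.070), and it stayed at -0.13 without that library. All sgEGR1 libraries lay above sgControl in 2 members (3.61% of all genes), among them RPS9, which had 0 counts in each sgControl SCF library and 4, 6 and 14 counts in sgEGR1 SCF. Other members far from 0 were RPS27 (-0.11, SE 0.11), RPS26 (-0.10, SE 0.098), RPS12 (0.12, SE 0.11) and RPL18 (0.075, SE 0.050). Without that library they stood at -0.15, -0.13, 0.074 and 0.055.

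The largest contrast among the members followed the replicate number. Compared with replicates 2 and 3 of the same groups, replicate 1 had 55 of 79 members lower (69.6%) and 0 higher, with a median of -0.14, while 26.6% of all genes were called and 13.4% were called lower, with a median of 0.0044. The labels do not say what a replicate number stands for. RPL17, which lines the exit of the large subunit's tunnel, had the lowest value, at -0.28 (SE 0.048, edgeR, adjusted p = 0.000877). RPSA, a small subunit protein also known as the laminin receptor, had 693.9, 672.4, 693.2 and 684.5 CPM in replicate 1 of the 4 groups and 773.3 to 859.9 CPM in replicates 2 and 3. Its libraries did not overlap, and its log2 fold change was -0.25 (SE 0.030, edgeR, adjusted p = 5.75e-05). RPS26, at the exit of the mRNA channel, stood at -0.22 (SE 0.034, edgeR, adjusted p = 0.000363). The called members nearest to 0 were RPL18 (-0.080), RPL8 (-0.088) and RPL3 (-0.099).

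RPS19, RPL5, RPL11, RPLP0, RPS6, RPS27A, RPS4X, RPL22 and RPS27L were also lower in replicate 1, by log2 differences of -0.22 to -0.099. RPS15, RPL28 and RPL13, the genes that fell after SCF, were not called here, at -0.053 (SE 0.033), -0.038 (SE 0.035) and -0.045 (SE 0.037). RPS27 (-0.16, SE 0.068) and RPL22L1 (0.063, SE 0.052) were not called either, and RPL22L1 was the highest of the named members. The count of lower members was 19 without sgControl PBS replicate 1, 20 without sgControl SCF replicate 1 and 33 when libraries were scaled by their totals. Shares of all genes called in these fits are not reported here.

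In replicate 1, the other genes of translation listed had medians closer to 0 on the same side. Of 20 other TOP mRNAs, which encode elongation and initiation factors and poly(A)-binding proteins among others, 14 were lower and 1 higher in replicate 1, with a median of -0.095. Of 75 mitochondrial ribosomal proteins, which serve the separate ribosome of that organelle, 33 were lower, with a median of -0.099. Of 648 other genes with an annotated mRNA under 1000 bases, 104 were lower and 61 higher, with a median of -0.023. Of 260 ribosomal protein pseudogenes tested, 12 were lower and 2 higher in replicate 1. Their median was -0.17, further from 0 than that of the members. After SCF none of the other TOP mRNAs was called in either guide, at medians of -0.041 in sgControl and -0.024 in sgEGR1. The mitochondrial ribosomal proteins had medians of 0.026 and 0.074, with MRPL17 called higher in sgEGR1. Ribosomal protein pseudogenes (260 tested) had medians of -0.17 and 0.083 and the short mRNAs of -0.036 and 0.039, so short mRNAs and pseudogenes lay on the same side of 0 as the members in both guides. In sgControl SCF replicate 1 the median pseudogene stood at -0.17 from its mean over all libraries, further than the median member. The part of mRNA length and of shared reads in the members' values was not tested.

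**Figure D5:**
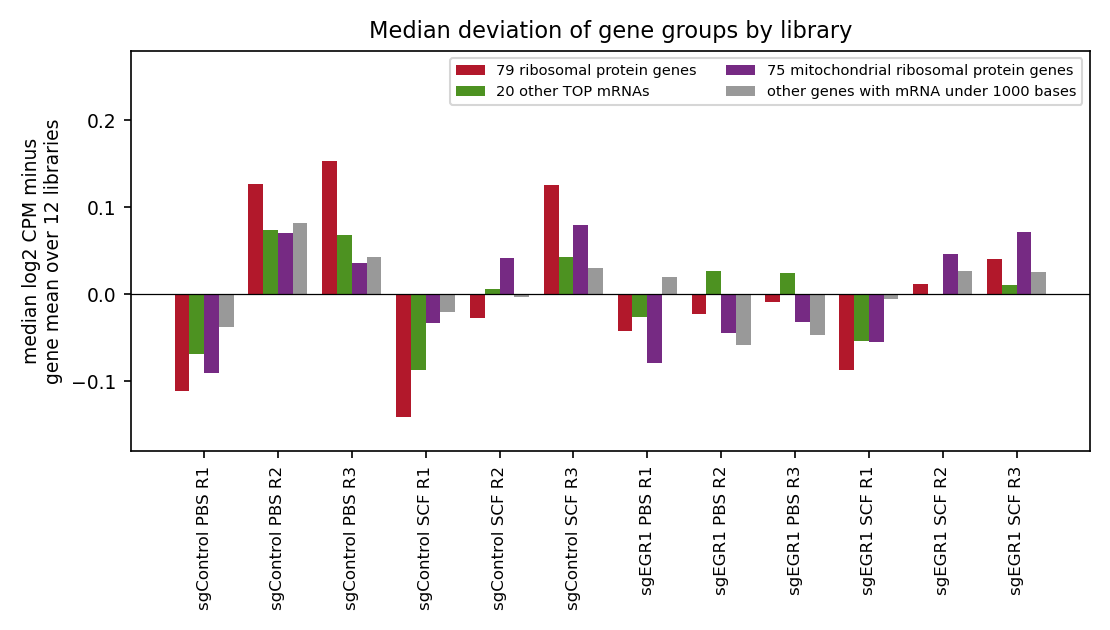
Median over the genes of a group of log2 CPM minus the mean of the gene over 12 libraries (y axis) in each library (x axis, R1 to R3 being the replicates), for the 79 ribosomal protein genes, 20 other TOP mRNAs, 75 mitochondrial ribosomal protein genes and other genes with an mRNA under 1000 bases, drawn as bars from 0. The ribosomal protein genes reach 0.15 in sgControl PBS R3 and -0.14 in sgControl SCF R1, further from 0 than the other groups drawn.

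By role, the small subunit genes (31) and the large subunit genes (46) had nearly the same medians, -0.087 and -0.079 after SCF in sgControl, 0.013 and 0.0093 after SCF in sgEGR1, and -0.086 and -0.083 for sgEGR1 after PBS. In replicate 1, 19 of 31 and 35 of 46 were lower. The 4 members at the mRNA entry and decoding sites (RPS2, RPS3, RPS15 and RPS23) had a median of -0.17 after SCF in sgControl, with RPS15 called. The 4 stalk members (RPLP0, RPLP1, RPLP2 and RPL12) had a median of -0.083 and the 7 at the exit tunnel of -0.067, none called. Of 19 Diamond-Blackfan anaemia genes, none was called in any comparison of groups, with medians of -0.072 and 0.021 after SCF in sgControl and sgEGR1 and of -0.10 for sgEGR1 after PBS, and 14 were lower in replicate 1.

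The paralogs were not called in any comparison of groups, and after SCF in sgControl RPS27L and its partner RPS27 had similar fold changes. RPS27L, a p53 target whose product can replace RPS27, had 34.83, 42.14 and 44.02 CPM in sgControl PBS, 29.9, 35.6 and 45.2 in sgControl SCF, 35.3, 36.4 and 37.93 in sgEGR1 PBS and 36.9, 38.67 and 39.28 in sgEGR1 SCF. All 4 groups overlapped, and the log2 fold change after SCF in sgControl was -0.13 (SE 0.13), beside -0.14 (SE 0.11) for RPS27. After SCF in sgEGR1 the pair lay on opposite sides of 0. Over 23 alternatives RPS27L ran from 0.044 to 0.096 and RPS27 from -0.087 to -7.8e-05, and neither was called. RPL22L1, which can replace RPL22, had 66.69, 66.75 and 68.46 CPM in sgControl PBS, 63.92, 57.96 and 70.94 in sgControl SCF, 63.92, 55.07 and 59.42 in sgEGR1 PBS and 65.96, 57.95 and 62.6 in sgEGR1 SCF. Its sgEGR1 PBS libraries lay below sgControl PBS (log2 fold change -0.18, SE 0.077, edgeR, adjusted p = 0.999), while RPL22 stood at -0.11 (SE 0.079) there.

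Levels per kilobase of annotated mRNA differed widely between members, and they depend on the annotated length. RPS12 was highest at a mean of 3808 CPM per kilobase (3214 to 4279 over the libraries), and RPL13A had a mean of 2874. The median member was at 975 CPM per kilobase, and 47 of 79 lay within 2-fold of it. RPL22L1 (33.3) and RPS27L (6.22) were lowest after the 3 members of very low counts. The annotated mRNAs of RPL37 and RPS27L are 7573 and 6110 bases long, far over the length of their coding parts. Those of RPL14, RPL27A and RPL28 are 7136, 4535 and 4209 bases long. An mRNA that ends earlier in these cells would have a higher level per kilobase than given. RPL14 and RPL37 had means of 846 and 857 CPM, beside a median of 845 CPM for members, but 118 and 113 CPM per kilobase. The part of annotated length in these differences was not tested.

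The members that fell after SCF are rich in G and C. The annotated mRNA of RPS15 has 61.3% GC, the 2nd highest of the members, RPL28 has 55.1% (13th) and RPL13 54.7% (14th), compared with a median of 47.5% for members and 48.4% for other genes. Across 76 members, the Pearson correlation of GC content with the log2 fold change after SCF was -0.439 in sgControl and -0.450 in sgEGR1. The genes share their libraries and are not independent replicates. Over 11771 other genes of known GC content it was -0.0377 and 0.0225. The median log2 fold change of these genes by GC class did not follow a straight line, which such a correlation misses. In sgControl it was -0.078 in the 500 genes richest in GC and -0.029 in the next class (1415 genes), where RPS15 lies. It was 0.0047 and 0.028 in the classes where RPL28 and RPL13 lie. In sgEGR1 the same medians were -0.0036, -0.0030, 0.0069 and 0.019. GC content was known for all 79 members and for 76.5% of the genes tested. With a per-library GC trend taken out over genes of known GC, an alternative chosen after seeing the data, RPL28 and RPL13 were called lower in sgControl, RPS15 was not (edgeR, adjusted p = 0.0802), and all 3 were called on average over both guides.

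Among the proteins that escort and regulate ribosomal proteins, 2 of 8 dedicated chaperones and assembly factors rose after SCF in both guides. GRWD1, a chaperone of RPL3, rose by 0.28 on the log2 scale in sgControl (SE 0.056, edgeR, adjusted p = 0.0199) and by 0.24 in sgEGR1 (SE 0.057, edgeR, adjusted p = 0.0465). LTV1, an assembly factor of the small subunit, rose by 0.35 (SE 0.070, edgeR, adjusted p = 0.0206) and by 0.34 (SE 0.070, edgeR, adjusted p = 0.0250). Over 23 alternatives GRWD1 was called in 18 in sgControl and in 10 in sgEGR1 (adjusted p up to 0.174), and LTV1 in 20 and in 18, always higher after SCF. Neither was called in sgEGR1 without the library labelled sgEGR1 SCF replicate 3 (0.21 for GRWD1, adjusted p = 0.171 in edgeR, and 0.28 for LTV1, adjusted p = 0.109). Their direction is opposite to that of RPS15, RPL28 and RPL13. Of 18 genes of mTORC1 signalling and TOP control, TSC1, a brake on mTORC1, was called lower in sgEGR1 (-0.27, SE 0.060, edgeR, adjusted p = 0.0316), and in 12 of the 23 alternatives, but not without that library (-0.25, edgeR, adjusted p = 0.132). TSC1 stood at -0.18 in sgControl (SE 0.060, edgeR, adjusted p = 0.154), and the guides were not shown to differ (interaction -0.094, SE 0.084). RPL7L1, a paralog outside the rule that acts in ribosome assembly, was higher on average over both guides (0.16, SE 0.038, edgeR, adjusted p = 0.0227), and was called in 19 of the alternatives, but not without that library (0.14, edgeR, adjusted p = 0.0631).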

How the data were processed

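RNA-seq libraries of HUDEP-2 cells (4 groups of 3) were analysed from the deposited gene table of estimated counts, which the authors made by aligning reads to hg38 with HISAT and counting with StringTie. The values are whole numbers and neither depth nor length is scaled. The annotation release, the strand setting and the treatment of multi-mapping reads are not given in the sources used here. All 12 columns were used, and 0 columns of per-sample values were left out. Genes kept by filterByExpr were fitted with 1 coefficient per group in edgeR 4.0.16 (R 4.3.3, TMM factors, glmQLFit and glmQLFTest), with Benjamini-Hochberg adjustment over all of them and a threshold of 0.05. The script was tested on simulated data. DESeq2 1.42.0, which the study used, was an alternative, with others listed below. The members and gene lists were chosen with earlier results of these data known. Named in every case were RPS27L, RPL22L1, RPS27, RPL22, RPS19, RPL5, RPL11, RPLP0, RPS6, RPS27A, RPL3 and RPS4X, and for each comparison the called members (at most 8 in each direction) and the 3 highest and 3 lowest. The values of some members this rule names are not reported here. Gene positions are from GENCODE on GRCh38 and start sequences from RefSeq. The replicates are described as biological, with no culture or day named, and p-values measure the spread between these libraries. Between guides, same-numbered libraries deviated together (correlations of 0.232, 0.103 and 0.119 after PBS and 0.269, 0.102 and 0.126 after SCF), and the paired fit changed no call of a member there.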

Additional observations from a re-analysis of the deposited data

How the results depend on the processing

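With 3 libraries a group, most members' differences did not pass the test. Depth limits RPS9 and RPS18, whose libraries held 0 to 86 counts. Of 26 named gene results that were called, 0 changed sign under any alternative and 8 stayed called in every one. Among these 8, the only result on SCF or guide was RPL28 on average over both guides. The others were RPL17, RPSA, RPS26, RPS19, RPL5, RPLP0 and RPS27A in replicate 1 against replicates 2 and 3. Of the named results that were not called, 26 changed sign under at least 1 alternative. The fits with a GC value, and those that joined the replicate 1 term with the removal of sgEGR1 SCF replicate 3, were chosen after seeing the data, as was the median without the 3 members of very low counts. Except as listed here, the counts of called members stayed within 1.5 times of those reported and the medians and shares within 1 SD, in all alternatives run. That SD was 0.105 (log2) for medians and 0.405 percentage points for shares. All medians in comparisons of groups were smaller in size, as were the share differences except that between guides after PBS. Staying within 1 SD therefore does not show that a value kept its size or sign. In sgEGR1 the median after SCF was 0.013, and -0.0049 without sgEGR1 SCF replicate 3. The causes were not tested.

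Called members after SCF in sgControl (2 in the report) were 0 without a filter on low counts, 4 with the replicate block, 4 with a term for replicate 1, 4 with that term and without sgEGR1 SCF replicate 3, and 5 in replicates 2 and 3 only. The average over both guides (3) gave 5 with the replicate block. Any difference among the groups (0) gave 4 by DESeq2, 4 with the replicate block, 5 with the replicate 1 term, 7 in replicates 2 and 3 only, 3 with the term and without sgEGR1 SCF replicate 3, 2 in genes with a GC value only and 1 with the GC trend taken out. Replicate 1 against replicates 2 and 3 (55) gave 33 with library totals. Leaving out each library in turn gave 0 to 4, 1 to 5, 0 to 4 and 19 to 68 in the same order. Where the share of all genes called in a fit is not reported, its count is not a result about the members alone.

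Same-numbered libraries were less alike between SCF and PBS (correlations of 0.272, 0.00766 and 0.108 in sgControl and of 0.230, 0.0749 and 0.0620 in sgEGR1), so the numbers were not taken as pairs there. The replicate block raised the count in sgControl from 2 to 4 and left it at 0 in sgEGR1.

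In the settings listed next, the log2 fold changes that turned sign were those of genes near 0, none of them called. When 1 library was left out, values further from 0 turned sign too, among them RPS27L after SCF in sgControl and RPS27 between guides after SCF. With library totals, RPL3 was at 0.0059 after SCF in sgControl, and RPS19, RPL11, RPLP0 and RPS4X were at 0.00050, 0.0015, 0.0096 and 0.014 after SCF in sgEGR1. RPS4X was at 0.0025 without a filter. In replicates 2 and 3 only, RPS19, RPL11, RPLP0 and RPS4X were at 0.023, 0.014, 0.012 and 0.015 in sgEGR1, RPL10 at -0.018 between guides after PBS and the response difference of RPS10 at 0.0015. With the replicate 1 term and without sgEGR1 SCF replicate 3, RPL11, RPL3 and RPS4X were at 0.0061, -0.0065 and 0.0013 in sgEGR1 and the response difference of RPL7A at -0.0017. After SCF in sgEGR1, RPL3 was at -0.00015 by DESeq2, -0.00016 with its size factors, -0.0038 in genes with a GC value and -0.019 with the GC trend taken out. In sgControl the last 2 settings gave -0.0036 and -0.013 for RPS27A, and the trend gave -0.0083 for RPS7.

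Leaving out 1 library gave these ranges after SCF in sgControl: RPS27L -0.30 to 0.0066, RPL22L1 -0.14 to 0.0066, RPL5 -0.10 to 0.013, RPS6 -0.11 to 0.015, RPS27A -0.10 to 0.091, RPL3 -0.072 to 0.025, RPS10 -0.044 to 0.12, RPL9 -0.11 to 0.14 and RPS7 -0.061 to 0.083. After SCF in sgEGR1 they were -0.051 to 0.034 for RPS19, -0.051 to 0.034 for RPL11, -0.026 to 0.033 for RPLP0, -0.022 to 0.035 for RPL3 and -0.015 to 0.023 for RPS4X. Between guides after PBS, RPS27A ran from -0.14 to 0.0074, RPL3 from -0.077 to 0.019, RPL10 from -0.016 to 0.051, RPL9 from -0.090 to 0.051 and RPS28 from -0.070 to 0.029, and after SCF RPS27 ran from -0.20 to 0.029. The response difference was -0.091 to 0.077 for RPS10, -0.020 to 0.077 for RPL3 and -0.020 to 0.0905 for RPL7A. The average was -0.0084 to 0.12 for RPL9 and -0.0029 to 0.092 for RPS12. RPL13 in replicate 1 ran from -0.091 to 0.00027.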
